A study of Homo sapiens with 12 samples.

Results

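Cohesin regions that were present whether or not the release factor WAPL or the loader subunit SCC4 had been deleted were examined in HAP1 cells. The SMC1 peak lists of 4 genotypes were merged wherever intervals overlapped by at least 1 bp, which gave 38018 SMC1 regions. Of these, 10707 regions (28.2%, 95% Wilson interval 27.7 to 28.6) held a peak of every genotype, and these are called the shared regions. They were chosen by the SMC1 peaks themselves, so their SMC1 values are given as a description. The CTCF and IgG libraries, the DNA sequence and the position relative to genes were not used to choose them.

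Peak lists of chromatin immunoprecipitation sequencing (ChIP-seq) came from HAP1, a near-haploid human leukaemia line whose parental cells carry a mutant p53. SMC1, CTCF or, as a control, non-specific IgG was precipitated from each of the genotypes wild-type, ΔWAPL, ΔSCC4 and ΔWAPL/ΔSCC4. The ΔWAPL and ΔSCC4 clones were made by CRISPR cutting with insertion of a blasticidin or a puromycin resistance cassette, and the ΔWAPL/ΔSCC4 cells came from a further deletion of SCC4 in the ΔWAPL clone. ΔSCC4 cells also have little of the partner subunit SCC2 by the study's account, which makes them a model of loss of the loader rather than of SCC4 alone. Each of the 12 combinations had a single library. Without replicates no test between genotypes was possible, and a difference between clones or libraries cannot be told apart from an effect of the genotype. Neither the deletions nor the cell type could be checked from peak lists.

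Cohesin is a ring of SMC1, SMC3, RAD21 and a STAG subunit that entraps DNA and extrudes loops. The SCC2/SCC4 complex (NIPBL and MAU2 in human gene symbols) loads it and WAPL opens the ring to release it. CTCF is a zinc-finger protein that binds an asymmetric DNA motif and halts cohesin, and loops are usually anchored at a pair of CTCF motifs that point towards each other.

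The CTCF motif was learned from wild-type CTCF peaks outside every SMC1 region, so that no shared region took part. It had 19 positions, the consensus TTGCCACTAGGGGGCACTA and 17.0 bits of information. The following hg19 (GRCh37) sequences show its best match near the SMC1 summit of shared regions to which the results return, read 5′ to 3′ on the strand named, with the match in capitals. The first 3 are the strongest shared regions, the next 4 lie at or near the ends of the range of ΔWAPL to wild-type and ΔSCC4 to wild-type ratios, and the last was barely called in ΔSCC4 cells.
THSD4, chr15:71407705-71407733, plus strand: cgcggTCGCCGCCAGGGGGCGGCAggagc
FSIP2, chr2:186603739-186603767, minus strand: gcctgCGGCCGCCAGAGGGCGACGccgcc
IQCH, chr15:67749434-67749492, plus strand: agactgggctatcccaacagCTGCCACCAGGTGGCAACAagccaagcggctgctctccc
OPCML, chr11:132952852-132952910, plus strand: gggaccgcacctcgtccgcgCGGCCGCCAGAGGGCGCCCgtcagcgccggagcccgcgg
HBG2 and HBE1, chr11:5497611-5497669, plus strand: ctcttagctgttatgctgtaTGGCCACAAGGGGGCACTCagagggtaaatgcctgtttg
MIR100HG, chr11:122086273-122086331, plus strand: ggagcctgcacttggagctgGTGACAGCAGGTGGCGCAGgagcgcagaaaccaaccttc
GLIS2, chr16:4380449-4380507, minus strand: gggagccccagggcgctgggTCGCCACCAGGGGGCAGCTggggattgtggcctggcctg
PLCB1, chr20:8732285-8732313, plus strand: gcattTGTCCACTAGAGGGCAGGAactta

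Depth, recovered from the deposited values of each peak, was 6.79 to 8.41 reads per kb in the SMC1 libraries, 6.53 to 8.41 in the CTCF libraries and 5.43 to 9.05 in the IgG libraries. The SMC1 lists held 18542 peaks for wild-type, 33952 for ΔWAPL, 12779 for ΔSCC4 and 26558 for ΔWAPL/ΔSCC4 cells. The shared regions took up 58.2% of the wild-type list and 84.1% of the ΔSCC4 list, but 31.7% of the ΔWAPL list and 40.5% of the ΔWAPL/ΔSCC4 list. Since every shared region needs a ΔSCC4 peak, the short ΔSCC4 list sets the upper limit of their number. These are the lengths of the deposited lists, whose calling threshold is not given in the sources used here. They differ from the SMC1 peak numbers that the study reports, and the size of the shared set rests on the deposited lists. With lists cut to equal length 6831 regions were shared, and with a −log10 q of at least 10 in every genotype 4025 were. Among the remaining regions, 5372 lacked a peak in ΔSCC4 cells only, 6108 had one in ΔWAPL and ΔWAPL/ΔSCC4 cells only, and 9238 had one in ΔWAPL cells only.

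The shared regions were among the stronger SMC1 peaks of each list, and they differed in height between genotypes. Height is given as the scaled pileup, the number of overlapping fragments at the summit of the region's strongest peak divided by the genome-wide average of that library. The median scaled pileup was 15.2 in wild-type cells (quartiles 12.05 and 20.3) and 26.4 in ΔWAPL cells (17.6 and 38.3). It was 11.95 in ΔSCC4 cells (9.56 and 16.1) and 20.1 in ΔWAPL/ΔSCC4 cells (15.6 and 26.6). The signal was thus highest without WAPL, lowest without SCC4, and above wild-type where both were deleted. SMC1 regions outside the shared set had a lower median in each library, at 10.1, 11.9, 8.97 and 11.02 in the same order of genotypes.

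Behind these medians lay 24 fragments at the summit for wild-type, 42 for ΔWAPL, 20 for ΔSCC4 and 31 for ΔWAPL/ΔSCC4 cells. Peak width moved with the WAPL deletion, with a median of 321 bp in wild-type and 300 bp in ΔSCC4 cells against 434 bp in ΔWAPL and 432 bp in ΔWAPL/ΔSCC4 cells. The scaled pileup was highest in ΔWAPL cells at 7664 shared regions (71.6%) and lowest in ΔSCC4 cells at 7472 (69.8%). The full order ΔWAPL, ΔWAPL/ΔSCC4, wild-type, ΔSCC4 from high to low was found at 4566 regions (42.6%).

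**Figure D1:**
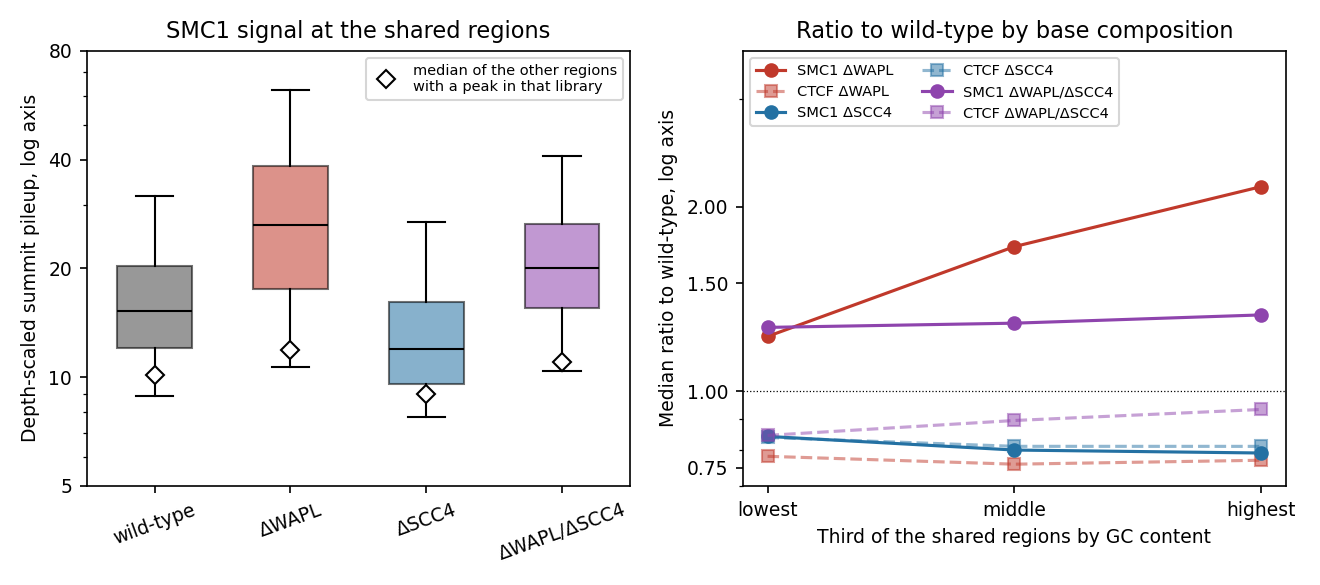
Left, depth-scaled SMC1 summit pileup (log axis) of the 10707 shared regions in each genotype, with boxes from the lower to the upper quartile around the median, whiskers from the 5th to the 95th percentile, and diamonds for the median of the other regions with a peak in that library. Right, the median ratio to wild-type (log axis) of SMC1 (circles) and CTCF (squares) in 3 equal groups of shared regions by GC content, where the ΔWAPL SMC1 ratio went from 1.23 to 2.16 and the other ratios stayed within narrower ranges.

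Compared region by region, deletion of WAPL went with more SMC1 at the median region in either background, and deletion of SCC4 with less, although in cells without WAPL the GC-poor regions were an exception. Each background share below counts all regions with a peak in both lists, the shared regions included, so the share of the remaining regions is given beside it. The median ratio of ΔWAPL to wild-type was 1.67 (quartiles 1.24 and 2.20), and 6381 shared regions (59.6%) were at least 1.5-fold higher in ΔWAPL cells. The background for this count was 56.8%, and 52.3% of the 6583 regions outside the shared set passed it. The median ratio of ΔWAPL/ΔSCC4 to ΔSCC4 was 1.59, with 57.5% of shared regions at least 1.5-fold higher against a background of 55.6% and against 39.5% of the 1298 remaining regions, whose median ratio was 1.36.

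For SCC4, the median ratio of ΔSCC4 to wild-type was 0.814, and 2667 shared regions (24.9%) were at least 1.5-fold lower against a background of 24.5%, of which the shared regions are nearly the whole, and against 13.002% of the 423 remaining regions. In cells without WAPL the median ratio of ΔWAPL/ΔSCC4 to ΔWAPL was 0.769, and 3752 regions (35.0%) were at least 1.5-fold lower against a background of 32.5% and against 30.4% of the remaining regions. This ratio crossed 1 with base composition, at 1.03, 0.749 and 0.616 in 3 equal groups from low to high GC content, so that the median GC-poor region had no less SMC1 in the double deletion than in ΔWAPL cells. The double deletion stood above wild-type, with a median ratio of 1.30 and 31.3% of shared regions at least 1.5-fold higher against a background of 29.7% and against 26.8% of the remaining regions. The scaled pileup was higher without WAPL in both backgrounds at 8754 shared regions (81.8%), and lower without SCC4 in both backgrounds at 6299 (58.8%). The presence of a peak in each list chose the regions in these counts, so the differences between sets are a description. The comparisons also share libraries in pairs, so they are given side by side and not as independent observations.

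The ΔWAPL to wild-type ratio was uneven and went with base composition. The shared regions were divided into 3 equal groups by GC content within 100 bp of the summit, with medians of 43.3%, 53.7% and 67.2% GC. The median ΔWAPL to wild-type ratio of SMC1 was 1.23 in the GC-poor group, 1.72 in the middle group and 2.16 in the GC-rich group. In ΔWAPL/ΔSCC4 cells the corresponding ratios were 1.27, 1.29 and 1.33, and in ΔSCC4 cells 0.843, 0.801 and 0.792. The wide range across GC content was thus seen in the ΔWAPL library and not in the other 2.

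Several other values moved with it. The local SMC1 background in the 10 kb around the summit, a window that contains the peak itself, was 1.18, 1.40 and 1.66 times the wild-type background in the 3 groups. The ratio of the deposited fold enrichment, which divides by that background, was 1.07, 1.29 and 1.41. CTCF precipitated from the same ΔWAPL cells gave ratios of 0.783, 0.760 and 0.771, with no such gradient. The gradient was as wide away from transcript starts. In the GC-rich group the SMC1 ratio was 2.15 within 1 kb of a transcript start and 2.17 farther away, and in the GC-poor group it was 1.19 and 1.24. SMC1 regions outside the shared set that had a peak in both lists gave 1.27, 1.67 and 1.90 over the same GC ranges. What part the GC content had in the ratio was not tested.

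Single regions show how the signal was distributed. Of the 9954 shared regions that lay on chromosomes 1 to 22 and X, leaving out chromosome 8, and overlapped no IgG peak, the strongest by its lowest −log10 q over the genotypes was chr15:71407395-71408442, at the start of the lncRNA CT62 and inside THSD4, a gene for an extracellular matrix protein. Its scaled pileup was 81.8 for wild-type, 118 for ΔWAPL, 68.1 for ΔSCC4 and 98.5 for ΔWAPL/ΔSCC4 cells. It kept the order of the medians, and its ΔWAPL to wild-type ratio of 1.44 had a 95% exact binomial interval of 1.15 to 1.82, which like the other intervals here covers counting error only. The region at chr2:186603332-186604208, at the start of FSIP2, which encodes a protein of the sperm tail, read 66.6, 133, 54.4 and 90.8 in the same order of genotypes. The ΔWAPL signal there stood above the other 3. Another strong region, chr15:67749060-67749751 in an intron of IQCH, read 63.4, 91.0, 61.0 and 67.4, so that the 3 other libraries were close to each other.

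At the upper end of the ΔWAPL to wild-type ratio, among regions with a −log10 q of at least 10 in all 4 genotypes, was chr11:132952591-132953104 in an intron of OPCML, a gene for a cell adhesion molecule of the immunoglobulin family. Its scaled pileup was 16.5 for wild-type, 76.6 for ΔWAPL, 17.3 for ΔSCC4 and 29.2 for ΔWAPL/ΔSCC4 cells, a ratio of 4.64 (3.02 to 7.39) without WAPL. Only the ΔWAPL library was far from the rest there, and the sequence around its summit was 81.1% GC. The next, chr12:97379214-97379839 at the start of the lncRNA ENSG00000258131, read 15.9, 72.2, 24.5 and 59.6, and was high in both genotypes without WAPL.

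At the lower end was chr11:5497338-5497860, in introns of long transcripts assigned to HBG2 and HBE1, which encode fetal and embryonic globins, and to OR51B5. It read 22.8 for wild-type, 11.9 for ΔWAPL, 17.9 for ΔSCC4 and 12.3 for ΔWAPL/ΔSCC4 cells. Both genotypes without WAPL were the low ones, and the ΔWAPL to wild-type ratio was 0.522 (0.283 to 0.935). The region chr2:70044033-70044499 in an exon of ANXA4, which encodes a calcium-dependent phospholipid-binding protein, read 27.3, 15.1, 20.3 and 25.9 and was low in ΔWAPL cells alone.

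The ΔSCC4 to wild-type ratio had its own ends. At chr11:122086016-122086604, in an intron of MIR100HG, the host transcript of a microRNA cluster, the scaled pileup was 17.1 for wild-type, 40.2 for ΔWAPL, 35.9 for ΔSCC4 and 31.8 for ΔWAPL/ΔSCC4 cells. The wild-type library was the low one, with a ratio of 2.09 (1.31 to 3.43) for ΔSCC4. The intergenic region chr2:19562622-19563156, 4448 bp from the start of OSR1, a transcription factor gene, read 15.9, 48.3, 31.1 and 29.2 and was again lowest in wild-type cells.

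In the opposite direction, chr16:4380265-4380717, in an intron of the zinc-finger gene GLIS2, read 38.7 for wild-type, 46.4 for ΔWAPL, 13.1 for ΔSCC4 and 19.5 for ΔWAPL/ΔSCC4 cells. Both genotypes without SCC4 were low, at 0.340 of wild-type (0.199 to 0.562) for ΔSCC4 and 0.503 (0.313 to 0.791) for the double deletion. CTCF fold enrichment at the same region was 19.99, 18.3, 17.6 and 17.99. By the same measure SMC1 was 11.8, 11.3, 6.75 and 8.43, a wider range across genotypes than that of CTCF. These regions were picked from the extremes of 3665 eligible regions, so their sizes are those of a selection.

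CTCF, measured in separate libraries, was present at nearly every shared region. A CTCF peak of all 4 genotypes overlapped 10533 shared regions (98.4%, 95% Wilson interval 98.1 to 98.6), against a background of 72% of all SMC1 regions. Of the others, 97 had CTCF in 1 to 3 genotypes and 77 (0.719%) in none. Among regions that lacked SMC1 in ΔSCC4 cells only, 93.4% had CTCF in all 4 genotypes, a difference of 4.98 percentage points from the shared regions (95% Newcombe interval 4.30 to 5.71). The share was 72.7% where SMC1 was found in ΔWAPL and ΔWAPL/ΔSCC4 cells only and 32.9% where it was found in ΔWAPL cells only, differences of 25.7 points (24.6 to 26.8) and 65.5 points (64.5 to 66.5).

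**Figure D2:**
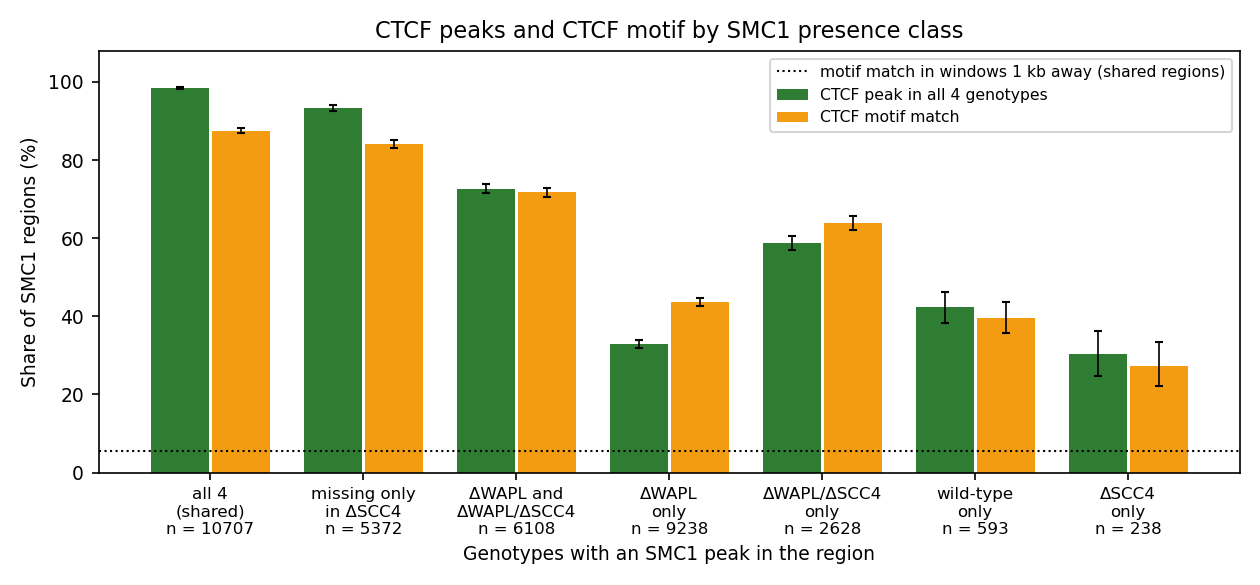
Share of SMC1 regions (%) overlapped by CTCF in all 4 genotypes or holding a CTCF motif match, for the shared regions and for regions with SMC1 in fewer genotypes, with 95% Wilson intervals as bars and the motif share in windows 1 kb away as a dotted line. The shared regions were highest in both, at 98.4% and 87.5%, and the 238 regions of ΔSCC4 cells alone lowest, at 30.3% and 27.3%.

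The CTCF peaks at shared regions were also the stronger ones. Wild-type CTCF fold enrichment had a median of 18.8 (95% order-statistic interval 18.7 to 18.9) at the shared regions and of 16.1 (15.9 to 16.2) where SMC1 was missing in ΔSCC4 cells only. It was 12.3 where SMC1 was found in both genotypes without WAPL only and 9.41 where it was found in ΔWAPL cells only. The same order held for CTCF measured in ΔSCC4 cells, with medians of 17.1, 14.1, 11.05 and 8.75. Seen from the CTCF list, 24.8% of wild-type CTCF peaks lay at a shared region, but 69.6% did in the strongest of 10 equal groups of that list and 2.88% in the weakest.

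Among the 17477 regions with both a wild-type SMC1 and a wild-type CTCF peak, the share present in all 4 genotypes was larger where CTCF was stronger. It was 33.8% (31.6 to 36.1) in the weakest of 10 equal groups by CTCF fold enrichment and 80.7% (78.8 to 82.5) in the strongest. CTCF strength and SMC1 strength go together across regions, so the shares were also taken within 3 equal groups of wild-type SMC1 scaled pileup. From weak to strong CTCF they went from 21.2% to 43.4% at the weakest SMC1 regions, from 47.2% to 70.3% at the middle ones, and from 82.2% to 94.3% at the strongest ones. Regions with more CTCF were thus more often shared within each group, but SMC1 was not level there. Its median went from 8.88 to 9.51, from 12.7 to 13.3 and from 19.7 to 21.6 between the weak and the strong CTCF regions of the 3 groups. Regions are not replicates, and these intervals describe these libraries only.

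**Figure D3:**
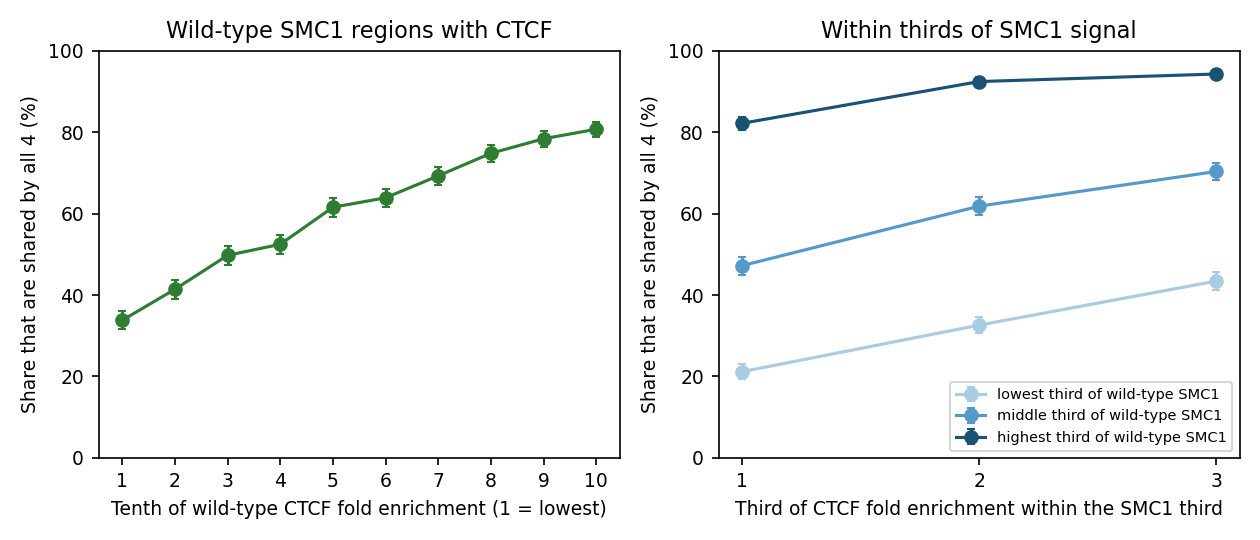
Share of wild-type SMC1 regions with wild-type CTCF that held SMC1 in all 4 genotypes (%, 95% Wilson bars) against wild-type CTCF fold enrichment, in 10 equal groups and within 3 equal groups of wild-type SMC1 signal. The share went from 33.8% to 80.7% over the 10 groups, and was larger with more CTCF within each SMC1 group.

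CTCF height at the shared regions differed between genotypes in another way than SMC1 height. At the 10533 regions with CTCF in all 4 genotypes, the median ratio of CTCF scaled pileup to wild-type was below 1 in each deletion library. It was 0.770 for ΔWAPL, 0.821 for ΔSCC4 and 0.889 for ΔWAPL/ΔSCC4 cells. The library average that divides these heights was lowest in wild-type cells, at 1.08 against 1.37, 1.22 and 1.22. What part this scaling had in the ratios was not tested. In the same order SMC1 had stood at 1.67, 0.814 and 1.30. Across regions, Spearman's rho between the SMC1 ratio and the CTCF ratio to wild-type was 0.020 for ΔWAPL, 0.100 for ΔSCC4 and 0.119 for ΔWAPL/ΔSCC4 cells, values over regions that share the same libraries and the same base composition. Within a genotype the scaled pileups of SMC1 and CTCF correlated more, from 0.349 in ΔSCC4 to 0.492 in ΔWAPL cells.

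A CTCF motif lay within 100 bp of the SMC1 summit at 9367 shared regions (87.5%, 86.8 to 88.1). Both strands were searched, and a match was a score that 5% of windows 1 kb from wild-type CTCF summits reach. Windows of the same length 1 kb from the shared SMC1 summits matched in 5.54%. The share was 84.1% where SMC1 was missing in ΔSCC4 cells only, 3.40 points lower (2.25 to 4.58), 71.8% where it was found in both genotypes without WAPL only, and 43.7% where it was found in ΔWAPL cells only. Of the 9367 matches, 49.9% (48.9 to 50.9) were on the plus strand.

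Some regions of very different SMC1 signal had strong matches. The matches printed above for the OPCML, HBG2 and GLIS2 regions scored 18.2, 22.8 and 20.0, although their ΔWAPL to wild-type ratios of SMC1 were 4.64, 0.522 and 1.20. Other regions named from the ends of the ratios scored lower. The scores were 12.2 at chr12:97379214-97379839, 13.6 at ANXA4, 14.99 at MIR100HG and 9.98 near OSR1, where a match needed 9.64. Whether the score goes with the SMC1 ratio was not tested. The PLCB1 region chr20:8731969-8732488, in an exon of this phospholipase C gene, had a score of 20.4 and CTCF fold enrichment of 18.8 to 21.9 across genotypes, yet was among the weakest shared regions. Its SMC1 pileup was 18 fragments for wild-type, 19 for ΔWAPL, 9 for ΔSCC4 and 21 for ΔWAPL/ΔSCC4 cells. ΔSCC4 was the low library, with a −log10 q of 1.52.

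SMC1 summits lay to the 3′ side of CTCF summits along the motif in every genotype. Relative to the motif centre, the median CTCF summit was at −10 bp for wild-type, −11 bp for ΔWAPL, −8 bp for ΔSCC4 and −9 bp for ΔWAPL/ΔSCC4 cells. The median SMC1 summit was at 1, 4, 0 and 1 bp. The median distance from the CTCF to the SMC1 summit of the same genotype was 8 bp (95% order-statistic interval 7 to 9) for wild-type, 11 bp (10 to 12) for ΔWAPL, 6 bp (5 to 7) for ΔSCC4 and 8 bp (7 to 8) for ΔWAPL/ΔSCC4 cells. Each interval covers counting error over the regions of 1 library, so whether the intervals overlap does not measure a difference between genotypes.

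Among shared regions with a motif, a CTCF peak and differing summits, the SMC1 summit was on the 3′ side at 59.4% for wild-type, 63.9% for ΔWAPL, 56.0% for ΔSCC4 and 59.8% for ΔWAPL/ΔSCC4 cells. In genome coordinates the wild-type distance was 6 bp at plus-strand motifs and −9 bp at minus-strand motifs, so the sign turned with the motif. The displacement was no property of shared regions alone, since regions missing only in ΔSCC4 cells gave 11 bp in the ΔWAPL libraries and regions of ΔWAPL cells alone 7 bp. Between genotypes the SMC1 summit itself moved little. The median distance to the wild-type summit was 27 bp for ΔWAPL, 30 bp for ΔSCC4 and 30 bp for ΔWAPL/ΔSCC4 cells.

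**Figure D4:**
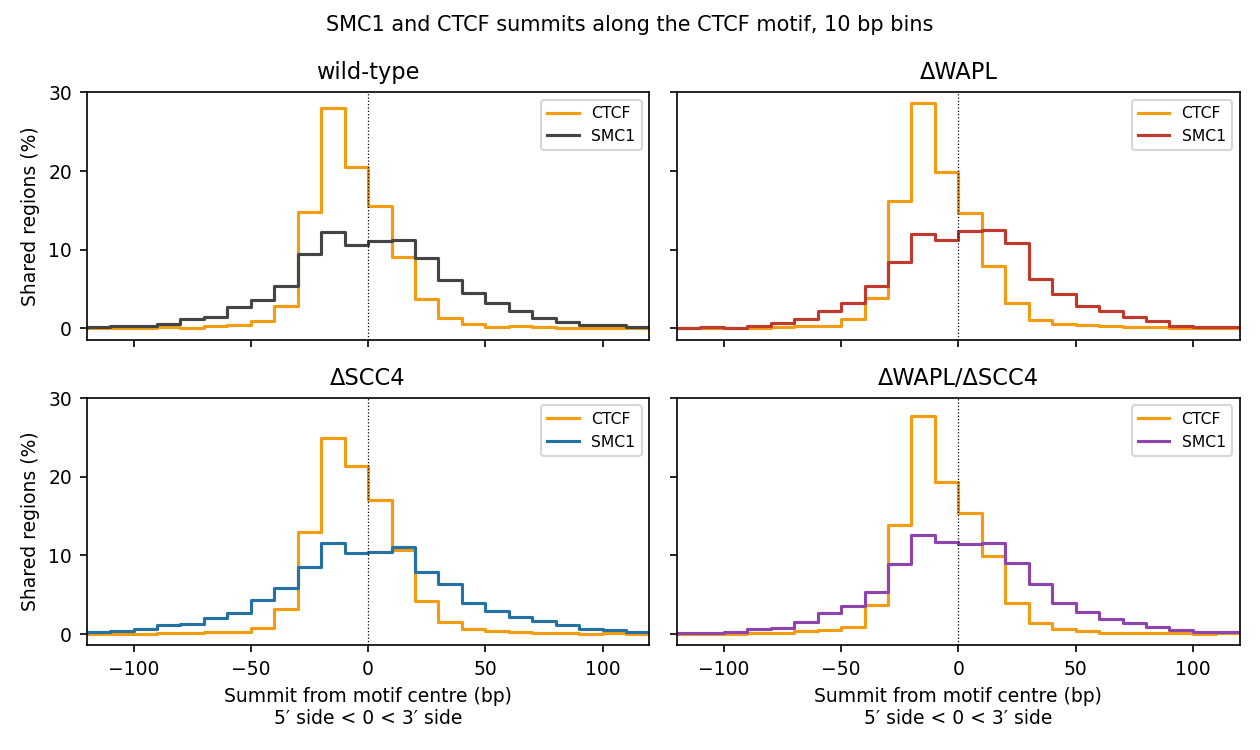
Distribution of SMC1 and CTCF summits (% of shared regions with a motif, 10 bp bins) by distance from the motif centre (bp, positive towards the 3′ end of the motif), in each genotype. CTCF summits had medians of −8 to −11 bp and SMC1 summits of 0 to 4 bp.

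The orientation of neighbouring motifs depended on how far apart they were. Over 9344 pairs of adjacent shared regions with a motif, 27.9% pointed towards each other (convergent), 27.9% away from each other (divergent) and 44.2% in the same direction. Convergent and divergent pairs alternate along a chromosome, so their totals are nearly equal by construction. Among 451 pairs under 10 kb apart, 9.09% were convergent and 34.6% divergent. From 50 to 200 kb, 31.0% were convergent and 27.1% divergent, and from 200 kb to 1 Mb the shares were 31.1% and 24.6%.

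Other SMC1 regions with CTCF in all 4 genotypes, paired among themselves in the same way, were 17.8% convergent under 10 kb and 23.7% from 50 to 200 kb. The convergent share of shared regions differed from theirs by −8.69 points (−11.9 to −5.06) at the short and 7.39 points (5.44 to 9.35) at the longer distance. From 10 to 50 kb the difference was 1.26 points (−1.13 to 3.72) and from 200 kb to 1 Mb 1.38 points (−0.715 to 3.48), and both intervals include 0. Above 1 Mb it was −10.2 points (−16.4 to −4.03). Divergent pairs were more frequent among shared regions at every distance, by 2.70 points (0.801 to 4.62) from 50 to 200 kb up to 8.64 points (3.71 to 13.7) under 10 kb. Over all distances the differences were 3.61 points for convergent and 3.65 points for divergent pairs, which are tied to each other by construction. Both follow from the smaller share of pairs in the same direction, 44.2% against 51.4%. The median gap between adjacent shared regions was 136 kb (quartiles 51.8 and 315 kb), and 29.1% of gaps held no other SMC1 region of any genotype. Whether any pair forms a loop cannot be read from these data.

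**Figure D5:**
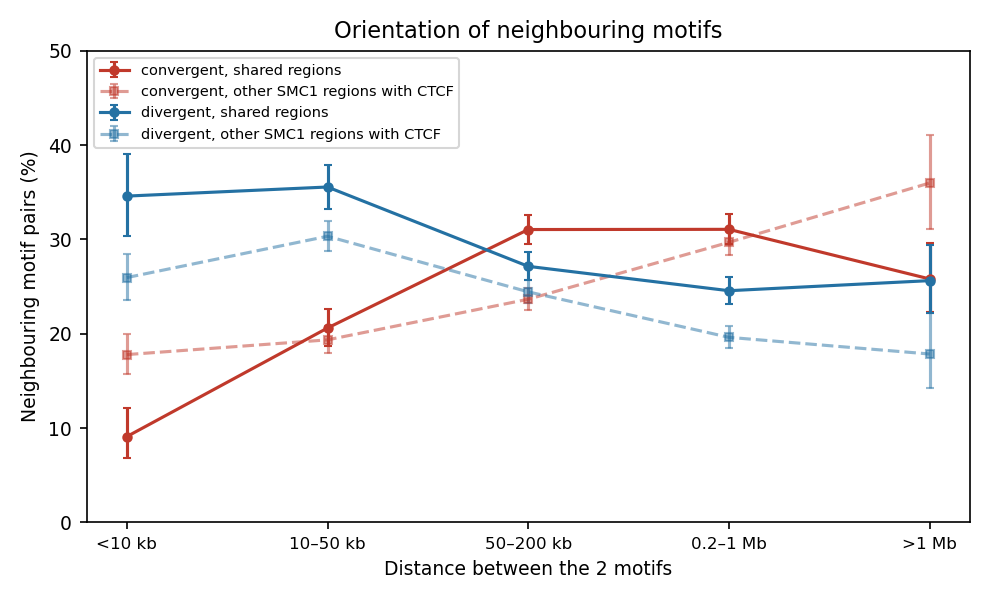
Share of adjacent motif pairs (%, 95% Wilson bars) that are convergent or divergent by distance between the motifs, for shared regions (solid) and for other SMC1 regions with CTCF in all 4 genotypes (dashed). Convergent pairs of shared regions made up 9.09% under 10 kb and 31.0% from 50 to 200 kb, and divergent pairs 34.6% and 27.1%.

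Shared regions were less often near a transcript start than SMC1 regions at large. The SMC1 summit was within 1 kb of a start at 2493 shared regions (23.3%, 22.5 to 24.1), against 32.7% of all SMC1 regions. It was in an exon at 5.05%, in an intron at 36.97% and between genes at 34.7%. Counting protein-coding transcripts only, 13.7% were near a start. Regions missing only in ΔSCC4 cells had a start within 1 kb in 23.9%, a difference of −0.655 points (−2.06 to 0.729) that includes 0. Regions of ΔWAPL cells alone were near a start in 55.0%, a difference of −31.7 points (−33.0 to −30.5). Per Mb, the shared regions were densest on chromosome 19 (6.26) and chromosome 17 (6.05), which are rich in genes, and numbered 2.07 on chromosome 13. Of the SMC1 regions of these chromosomes 29.7%, 29.8% and 24.5% were shared, beside 28.2% of all SMC1 regions. The high density on chromosomes 19 and 17 was thus that of SMC1 regions at large.

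A stretch of chromosome 15 from 62 to 84 Mb stood apart. HAP1 cells are known to carry an extra copy of part of this chromosome, whose part in the following values was not tested. The median local background of its 205 shared regions in the wild-type SMC1 library was 4.99 reads, against 2.44 elsewhere, and their median scaled pileup was 25.4 against 15.2. Fold enrichment, which divides by the background, was 6.98 against 7.26. Within the stretch 36.5% (32.7 to 40.6) of SMC1 regions were shared, against 28.0% elsewhere. The THSD4 and IQCH regions both lie there. Their wild-type fold enrichment was 13.7 and 15.1, where the 95th percentile of all shared regions was 11.6. What part the raised background had in their rank was not tested.

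The 77 shared regions without CTCF were mostly at promoters. A transcript start lay within 1 kb of 72 of them (93.5%, 85.7 to 97.2), which is 71.1 points (63.2 to 74.9) more than among shared regions with CTCF in all 4 genotypes. Their median GC content was 70.6%, 5 had a CTCF motif match and 0 of 77 overlapped an IgG peak, which allows a share of up to 3.896%. Their median scaled pileup was 12.7 for wild-type, 20.1 for ΔWAPL, 10.2 for ΔSCC4 and 12.3 for ΔWAPL/ΔSCC4 cells. The double deletion stood at the wild-type level here, with a median ratio of 1.022, where shared regions near a start with CTCF in all 4 genotypes had 1.32.

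The strongest of them, chr5:81147475-81148031 near the start of the lncRNA ENSG00000249483, read 26.6 for wild-type, 53.3 for ΔWAPL, 21.5 for ΔSCC4 and 24.6 for ΔWAPL/ΔSCC4 cells, and was high in ΔWAPL cells alone. The region chr5:81046630-81047686 at the start of SSBP2, a gene for a single-stranded DNA-binding protein, read 37.4, 43.9, 16.7 and 24.0, and was low in both genotypes without SCC4. The region chr2:114341215-114341738 at WASH2P read 13.95, 32.6, 14.9 and 20.1. WASH2P belongs to a family of near-identical copies, so the origin of its reads is uncertain.

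IgG gave a peak at 286 shared regions (2.67%, 2.38 to 2.99), against 1.15% of all SMC1 regions. The share was 0.186% of regions missing only in ΔSCC4 cells, but 9.59% of the 146 missing only in ΔWAPL cells and 27.6% of the 58 found in wild-type and ΔSCC4 cells only, so it was not highest in the shared set. At these 286 regions the median ratio of SMC1 to wild-type was 0.881 for ΔWAPL, 0.908 for ΔSCC4 and 0.880 for ΔWAPL/ΔSCC4 cells, where the shared regions without IgG had 1.70, 0.808 and 1.31. Only 6 of them had a CTCF motif match, although 260 overlapped CTCF peaks of all 4 genotypes, and 238 overlapped IgG peaks of all 4. Their median wild-type local background was 5.40 reads against 2.44 at the other shared regions. Signal at these regions was therefore present without a specific antibody, and none of them is named here.

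Genes of the cohesin cycle held shared regions. Of 15 genes for cohesin subunits and regulators, 7 (46.7%, 24.8 to 69.9) had a shared region in the gene or up to 5 kb before its start, beside 25.0% of all 20090 protein-coding genes. They were CTCF, the acetyltransferase gene ESCO1, the loader gene MAU2, the regulator genes PDS5A and PDS5B, and the subunit genes STAG1 and STAG2. SMC1A, SMC3, RAD21, NIPBL and WAPL had none. The list has long genes, with a median of 76.7 kb against 27.2 kb for all protein-coding genes. Its strongest region, 47 bp upstream of PDS5A, whose product works with WAPL, read 26.6 for wild-type, 62.1 for ΔWAPL, 16.7 for ΔSCC4 and 35.7 for ΔWAPL/ΔSCC4 cells and kept the order of the medians.

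Imprinted genes had a shared region in 7 of 13 (53.8%, 29.1 to 76.8), namely CDKN1C, GNAS, GRB10, KCNQ1, MEG3, PEG10 and PLAGL1. H19 and IGF2 had none in the gene or just before it. The strongest, chr11:2553897-2554532 in an intron of the potassium channel gene KCNQ1, read 39.3 for wild-type, 87.2 for ΔWAPL, 23.9 for ΔSCC4 and 56.4 for ΔWAPL/ΔSCC4 cells, again in the order of the medians. The HOX genes, which set position along the body axis and lie in 4 clusters, had a shared region in 18 of 39 genes (46.2%, 31.6 to 61.4) from 13 regions, although their median length was 4.22 kb. The strongest of these, 295 bp upstream of HOXB5, read 26.0, 65.3, 21.5 and 33.7.

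Clustered protocadherin genes, which encode neuronal adhesion proteins, had a shared region in 14 of 53 (26.4%, 16.4 to 39.6). All 14 were overlapping alpha genes that drew on 2 regions in all, of which PCDHAC1 held 1. The stronger, 305 bp into PCDHAC1, read 19.02 for wild-type, 44.6 for ΔWAPL, 14.3 for ΔSCC4 and 31.8 for ΔWAPL/ΔSCC4 cells. Cytosolic ribosomal protein genes, short and highly transcribed, had a shared region in 9 of 77 (11.7%, 6.27 to 20.7). The strongest, 377 bp upstream of RPL26, read 27.9, 74.1, 14.9 and 35.7. All 5 of these named regions were highest in ΔWAPL and lowest in ΔSCC4 cells. Among all shared regions 71.6% were highest in ΔWAPL and 69.8% lowest in ΔSCC4 cells, so this is the common pattern and not a trait of the lists. The lists describe where shared regions lie, and gene length differs between them.

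At the margin of the set, regions that lacked only a ΔSCC4 peak had a median −log10 q of 7.15 for wild-type, 14.6 for ΔWAPL and 10.0 for ΔWAPL/ΔSCC4 cells, against 13.1, 27.0 and 18.1 at shared regions. Just inside, 5 shared regions had a lowest −log10 q under 2. Besides PLCB1, the region chr3:33924925-33925351 between genes read 10 fragments for wild-type, 19 for ΔWAPL, 18 for ΔSCC4 and 16 for ΔWAPL/ΔSCC4 cells, with a wild-type −log10 q of 1.91. At such regions a few fragments decide whether a peak is listed, and 1 of the 4 libraries is then enough to move a region out of the shared set.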

How the data were processed

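The authors sequenced ChIP libraries with 65 bp single-end reads, aligned these to hg19 (Bowtie2) and ran MACS2 2.1.1 on every library separately. The deposited fold enrichment is a ratio of summit pileup to local background with 1 added to each, and the deposited −log10 p and −log10 q belong to that pileup. The calling threshold was not given in the sources used here. The methods name IgG as control, but the recovered backgrounds of all tested peaks were whole numbers of each library's own reads in 10 kb (tolerance 0.05 reads). Pileup and background were recovered by solving fold enrichment and −log10 p together, which gave exactly 1 whole-number pileup for 99.8% of peaks in the SMC1 list where this share was lowest. Scaled pileup is this pileup divided by the library's average.

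Groups (genotype and antibody) were taken from the sample labels. In each region the peak of highest −log10 q stood for a genotype, and CTCF and IgG peaks were assigned by an overlap of at least 1 bp. The motif was trained within 50 bp of the summits of the 1000 strongest of 13318 wild-type CTCF peaks that overlapped no SMC1 or IgG peak, and scored as log2 odds. Starts, exons and introns came from GENCODE 44 on GRCh37. Coordinates are 1-based. Shares have 95% Wilson intervals and differences Newcombe intervals, which cover counting error only. Python 3.11.15, numpy 2.4.6, pandas 2.3.3, scipy 1.17.1 and statsmodels 0.14.6 were used, and the steps were tested on simulated data.

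Named regions lay on chromosomes 1 to 22 and X without chromosome 8 and overlapped no IgG peak. They were the 3 with the highest lowest −log10 q, the 2 highest and 2 lowest ΔWAPL and ΔSCC4 ratios to wild-type among regions with −log10 q of at least 10 throughout, the 3 strongest without CTCF, the 2 weakest, and the strongest at each gene list. A region that this rule selects is not reported here. The shared regions, gene lists and comparisons were chosen with earlier results of these data known. Alternatives were stricter peak thresholds, removal of IgG peaks, other overlaps, equal list lengths, fold enrichment in place of scaled pileup, other start sites, a stricter motif score and subsets by GC content.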

Additional observations from a re-analysis of the deposited data

Results flagged for a closer look

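With 1 library per group, no outlier test within a group was made. Of 16 comparisons of a deletion in its 2 backgrounds, 6 had opposite directions. None of these differences was tested, and each rests on 4 libraries. Each measure was counted once for either deletion, on the same libraries. Its ratio between the backgrounds is the same for both deletions by construction.

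At the shared regions with CTCF in all 4 genotypes, the median CTCF scaled pileup was 67.3 for wild-type, 51.8 for ΔWAPL, 55.5 for ΔSCC4 and 59.9 for ΔWAPL/ΔSCC4 cells. The library averages that divide these heights were 1.08, 1.37, 1.22 and 1.22. Loss of SCC4 went with a ratio of 0.825 in wild-type and 1.16 in ΔWAPL cells, and loss of WAPL with 0.770 in wild-type and 1.08 in ΔSCC4 cells. The ratio between the backgrounds was 1.40. The median CTCF fold enrichment was 18.9, 17.2, 17.1 and 17.3 in the same order, which turned the same way by a smaller ratio of 1.11.

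The number of shared regions with a CTCF peak went from 10592 to 10559 with loss of SCC4 in wild-type cells and from 10596 to 10608 in ΔWAPL cells, a ratio between backgrounds of 1.00. Shared regions at an IgG peak went from 277 to 276 with loss of WAPL in wild-type cells and from 242 to 269 in ΔSCC4 cells, a ratio of 1.12, and the ΔSCC4 IgG library was the shallowest, at 5.43 reads per kb.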

How the results depend on the processing

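Of 86 values under 14 alternative settings, 50 stayed within their counting interval or within 1.5 times a count. None of the median ratios to wild-type crossed 1, and the median offset kept its sign. Shares and counts could only stay or move. The ratio of ΔWAPL/ΔSCC4 to ΔWAPL, which crossed 1 with GC content, was not among the results followed. The number of shared regions fell to 4025 with −log10 q of at least 10 and to 6831 with lists of equal length. The other values that moved follow by setting, as the share with CTCF in all 4 genotypes, the median ratios of ΔWAPL, ΔSCC4 and ΔWAPL/ΔSCC4 to wild-type, and the shares with a motif and near a start. With −log10 q of at least 5, CTCF was 99.1%, the ΔSCC4 ratio 0.825, the ΔWAPL/ΔSCC4 ratio 1.29 and the motif share 88.3%. With at least 10, CTCF was 99.6% and the ratios 1.71, 0.861 and 1.26. With fold enrichment of at least 5, CTCF was 99.4%, the ΔWAPL and ΔSCC4 ratios 1.70 and 0.828, the motif share 89.7% and the start share 22.1%. Without peaks at IgG, the ΔWAPL and ΔWAPL/ΔSCC4 ratios were 1.70 and 1.31 and the motif share 89.8%. With lists of equal length, CTCF was 99.4%, the ratios 1.83, 0.779 and 1.32, the motif share 88.9% and the start share 24.8%. With fold enrichment in place of scaled pileup, the ratios were 1.26, 0.881 and 1.10. With CTCF summits within 250 bp, CTCF was 97.8%. With protein-coding starts only, the start share was 13.7%, and with the motif score that 1% of windows reach, the motif share was 75.4%. Subsets by GC content were added after seeing the data, and the ratios were 1.23, 0.843 and 1.27 in the GC-poor group and 2.16, 0.792 and 1.33 in the GC-rich group. Beyond the fewer peaks or regions that a setting leaves, the cause was not tested. The share of convergent pairs stayed between 27.7% and 28.0%, and the median wild-type offset of SMC1 from the motif centre at 1 bp, under the alternatives run. Depth limits single regions most, with a median of 20 fragments at a ΔSCC4 summit. No paired analysis was possible because each group held 1 library and no comparison came from a test.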

Other observations

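Shared regions at the ends of the range of ratios differed in where they lie. Of the 1071 with the largest ΔWAPL to wild-type ratio, 39.5% (36.6 to 42.5) were near a transcript start, and their median GC content was 64.2%. Of the 1071 with the smallest ratio, 11.95% (10.1 to 14.03) were near a start and 42.8% (39.8 to 45.7) lay between genes, with a median GC content of 42.8%. A CTCF motif match was found at 87.6% (85.5 to 89.4) of those with the largest and 76.0% (73.4 to 78.5) of those with the smallest ratio. The 286 shared regions at an IgG peak, of which 6 had a motif match, were not left out here. Their median ΔWAPL to wild-type ratio was 0.881 and their median GC content 40.8%, with 15.4% near a start. What part they had in the low end was not tested. For the ΔSCC4 to wild-type ratio the ends were alike in start share, at 25.0% for the smallest and 25.2% for the largest. In the same order their motif shares were 90.7% and 90.1%, and their median wild-type scaled pileups were 19.7 and 10.8. Wild-type signal is the denominator of these ratios, so the last difference is partly fixed by how the ends were chosen.

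Regions kept their measured rank in SMC1 height only in part. Spearman's rho of the scaled pileup over the 10707 shared regions ran from 0.504 between ΔWAPL and ΔSCC4 cells to 0.705 between ΔWAPL and ΔWAPL/ΔSCC4 cells, and was 0.627, 0.659 and 0.650 between wild-type and the ΔWAPL, ΔSCC4 and ΔWAPL/ΔSCC4 libraries. The points are regions that share base composition and copy number, and the lowest pair of libraries shares no deletion. Counting error lowers these values, by an amount that was not tested. The median summit held 20 fragments in ΔSCC4 cells (quartiles 16 and 27) and 24 in wild-type cells (19 and 32).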
